A study of Bos taurus with 6 samples.

Results

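The insulin-like growth factor (IGF) system of bovine embryonic stem cells was examined through 10 genes: the ligands IGF1 and IGF2, the receptors IGF1R, IGF2R and INSR, and the binding proteins IGFBP2, IGFBP3, IGFBP4, IGFBP5 and IGFBP6. They were found by gene symbol and Entrez identifier among the 19163 genes of the count table. All 10 were in the table, and 9 of them passed the filter on low counts. IGF1 did not.

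RNA was sequenced from F7, an embryonic stem cell line derived from Holstein Friesian embryos made by in vitro fertilization, so both groups come from 1 line. In MC-F7 the cells grew on living mouse embryonic fibroblasts (MEFs, from C57 mice) whose division had been stopped with mitomycin C. In MT-F7 they grew on MEFs killed and fixed in methanol, then dried. Both groups had 15 passages and 3 libraries, and shared a medium of customized mTeSR1 base without its growth factors, to which recombinant human fibroblast growth factor and the WNT inhibitor IWR1 were added. The MC-F7 medium was changed daily and the MT-F7 medium every other day, so the effects of feeder and of medium change cannot be told apart. Before RNA extraction the dissociated cells stood on gelatin, and those still floating were taken. Separate cultures are not stated for the 3 libraries within a group, so p-values measure the spread between these libraries only, which may be technical.

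IGF1 and IGF2 are secreted peptides that promote survival and growth. Both act through the receptor tyrosine kinase IGF1R, IGF2 also through the insulin receptor INSR, while IGF2R carries IGF2 to the lysosome for breakdown. The IGFBPs are secreted proteins that hold IGFs outside the cell, and proteases release the IGFs by cutting them. In pluripotent stem cell culture, insulin or IGF is a usual survival factor, and fibroblast feeders are a known source of IGFs.

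The libraries held between 21958386 and 24933430 counts on genes. At that depth 3 counts, taken as the limit of detection, correspond to 0.116 to 0.14 counts per 1000000 after TMM scaling (CPM), and this limit covers counting error only. Genes of the mitochondrial genome took 16.3% to 28.3% of the counts in MC-F7 and 18% to 27.9% in MT-F7. The pluripotency gene POU5F1 was present in every library, at 1195 ± 329 CPM in MC-F7 and 522 ± 35.6 CPM in MT-F7 (SD, n = 3). NANOG was at 43.5 ± 9.03 and 10.7 ± 1.23 CPM. SOX2 was not analysed here. LIN28B and TDGF1 were not among the counts used and so were not tested, and their levels per length, from the deposited TPM rescaled to 1000000 per library, were 5.53 ± 1.36 in MC-F7 against 5.69 ± 0.447 in MT-F7 for LIN28B, and 10 ± 2.65 against 1.67 ± 0.17 for TDGF1 (SD, n = 3). Counts of called markers are read against all tested genes, of which 23.2% were called, 11.9% higher and 11.3% lower in MT-F7. Of 5 tested pluripotency markers, 4 were lower in MT-F7 and none was higher, and their summed level was 935 to 1561 CPM in MC-F7 and 577 to 626 CPM in MT-F7. Of 11 tested fibroblast markers, 3 were higher (COL3A1, PDGFRB and POSTN) and 1 was lower (TWIST2), with sums of 223 to 299.5 and 339.6 to 394 CPM. COL1A1 was at 205 ± 31.4 and 268 ± 15.6 CPM, COL1A2 at 16.9 ± 4.53 and 17.4 ± 2.14 CPM, and DCN at 1.87 ± 0.321 and 2.4 ± 1.05 CPM, none of them past the threshold. The counts do not mark whether a read came from bovine cells or from mouse feeder cells. The study reported a lower alignment rate in MC-F7 than in MT-F7, and proposed that fixed feeders reduced feeder cell contamination. Mouse reads, if any, may thus differ between the groups, and their part in the counts was not tested. Of 4 tested trophectoderm markers 3 were lower (GATA2, KRT8 and KRT18), of 5 tested neural markers PAX6 and RAX were higher, and CDX2 and GATA4 had 0 counts in every library. The tested primitive endoderm marker, FOXA2, was lower, and so was 1 of 2 tested leukocyte markers, SPI1. The sums were 1827 to 2831 and 679 to 791 CPM for trophectoderm, 484 to 556 and 666 to 722 CPM for neural, 4.78 to 6.13 and 0.618 to 1.19 CPM for primitive endoderm, and 4.16 to 5.7 and 3.24 to 4.92 CPM for leukocyte markers. The leukocyte sums overlapped between the groups, and the other sums did not. Single genes dominated some sums. POU5F1 made up most of the pluripotency sum, and FOXA2 (4.82 and 0.503 CPM in MC-F7 and MT-F7) most of the primitive endoderm sum. KRT8 (1430.1 and 554 CPM in MC-F7 and MT-F7) and KRT18 (859 and 193 CPM) made up most of the trophectoderm sum. NES (312 and 412 CPM) and TUBB3 (202 and 174 CPM), neither of them called, made up most of the neural sum. COL1A1, also not called, made up most of the fibroblast sum. The part of these markers in the IGF results was not tested. In bulk RNA, fewer cells of a type and less RNA per cell cannot be told apart.

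The IGF transcripts counted in the 2 groups differed mainly in IGF2 and the binding proteins. In MT-F7, IGF2 was 5.03-fold and IGFBP4 2.94-fold higher, while IGFBP2, IGFBP3 and IGFBP5 were 2.57-fold, 2.14-fold and 2.43-fold lower. None of the 3 receptor genes passed the test. Thus 5 of the 9 tested IGF genes were called at an adjusted p under 0.05 by edgeR's quasi-likelihood test with Benjamini-Hochberg adjustment over 13001 genes, 2 of them higher and 3 lower in MT-F7. Over all tested genes, 23.2% were called, 11.9% higher and 11.3% lower. The study picked IGF2 and IGFBP3 from these same libraries, so these 2 are not independent evidence. The median log2 fold change was 0.27 over the 9 IGF genes and -0.0026 over all tested genes. By the limits of the study's results (log2 fold change beyond 1.5 in either direction, and p under 0.05 before adjustment), IGF2 and IGFBP4 were called among the 9, against 6.58% of all tested genes. The study's methods give a lower limit on fold change. IGFBP3, which the study lists as lower in MT-F7, did not pass 1.5 here (log2 fold change -1.10). The CPM values of the groups did not overlap for 6 of the 9 genes, against 40% of all tested genes. With 3 libraries on each side the smallest two-sided p of a permutation is 0.1, so the calls rest on the spread estimated over all genes.

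**Figure D1:**
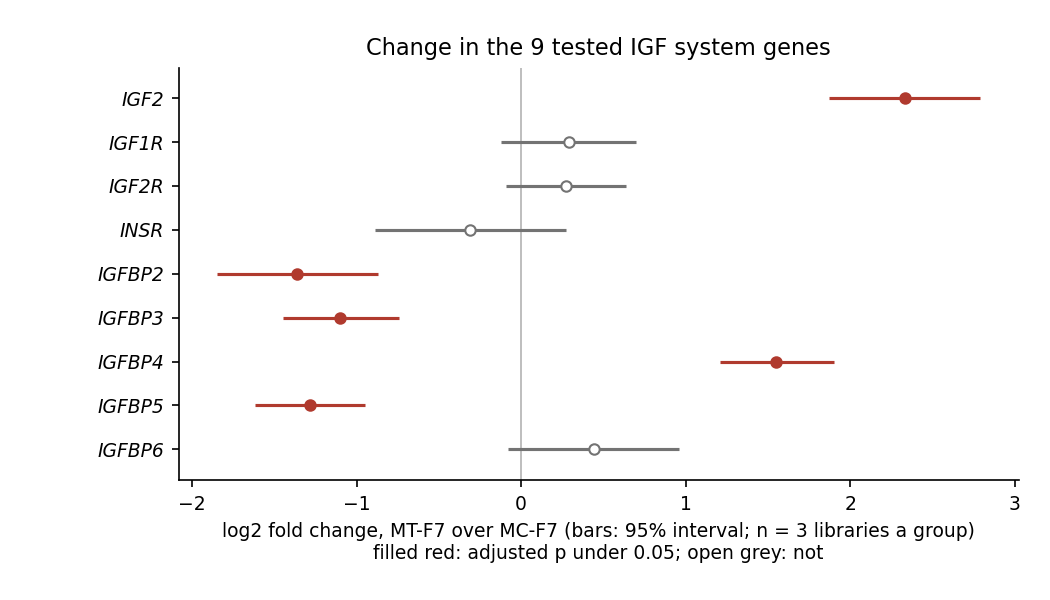
Log2 fold change of MT-F7 over MC-F7 for the 9 tested IGF genes, with 95% intervals from the edgeR quasi-likelihood fit (n = 3 libraries a group); filled red points have an adjusted p under 0.05. IGF2 (2.33) and IGFBP4 (1.55) lie to the right of 0, IGFBP2, IGFBP3 and IGFBP5 to the left, and the intervals of the 3 receptors and IGFBP6 include 0.

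Among the ligands, IGF1 (Entrez gene 281239) was at or below the limit of detection in every library. It had 0, 3 and 0 counts in MC-F7 and 0 counts in each MT-F7 library, so no fold change is given. IGF1 transcripts of these cells were not detectable at this depth in 5 of 6 libraries.

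IGF2 (Entrez gene 281240), the fetal growth factor and an imprinted gene expressed mainly from the paternal copy, had 254, 208 and 157 counts in MC-F7, against 939, 1103 and 1343 counts in MT-F7. In CPM these were 11.2, 8.62 and 7.34 in MC-F7, against 37.4, 42.6 and 57 in MT-F7. Every MT-F7 library was above every MC-F7 library. The means were 9.06 ± 1.98 and 45.7 ± 10.2 CPM (SD, n = 3), and the log2 fold change was 2.33 (SE 0.214, 95% interval 1.87 to 2.79, adjusted p = 8.7e-06). Replicate 3 lay at opposite ends, the lowest IGF2 value of MC-F7 and the highest of MT-F7. On log2(deposited TPM + 1), a scale that shrinks changes of low genes, the difference was 1.03 (limma, adjusted p = 0.0029). With TPM first rescaled to 1000000 per library, it was 1.93 (limma, adjusted p = 0.0018). The genome neighbour INS, encoding insulin, had 0 counts in MC-F7, against 0, 1 and 2 counts in MT-F7. H19, which lies close to IGF2 and is expressed from the other parental copy, was not analysed here.

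None of the receptors passed the test. IGF1R (Entrez gene 281848), the main signalling receptor of the family, was at 11.9, 14 and 11.8 CPM in MC-F7, against 14.2, 13 and 19 CPM in MT-F7. These values overlapped. The log2 fold change of IGF1R was 0.29 (SE 0.19, 95% interval -0.12 to 0.70, adjusted p = 0.30). IGF2R (281849), also known as the cation-independent mannose-6-phosphate receptor, was at 60.3, 64.6 and 69 CPM in MC-F7, against 77.2, 62.9 and 94.2 CPM in MT-F7. Its MT-F7 replicate 2 fell within the MC-F7 range while the other two were above it. The log2 fold change of IGF2R was 0.27 (SE 0.168, 95% interval -0.09 to 0.64, adjusted p = 0.27). The insulin receptor INSR (408017) was the least abundant receptor, with 67, 72 and 74 counts in MC-F7, against 71, 53 and 64 in MT-F7. In CPM, INSR was at 2.96, 2.98 and 3.46 in MC-F7, against 2.83, 2.05 and 2.72 in MT-F7, so the MT-F7 values were all lower by a small margin. Its log2 fold change was -0.31 (SE 0.269, 95% interval -0.89 to 0.27, adjusted p = 0.45). The intervals leave room for changes of these receptors in either direction, so the values do not show that the feeders act alike on them.

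The binding proteins IGFBP2 and IGFBP3 held most of the counts of the family, and both were lower in MT-F7. IGFBP2 (Entrez gene 282260), abundant in fetal tissues, was at 3567, 3317 and 2059.5 CPM in MC-F7, against 1111, 989 and 1376 CPM in MT-F7. The MC-F7 replicate 3 stood well under its group, but above all MT-F7 libraries. The means were 2981 ± 808 and 1159 ± 198 CPM (SD, n = 3), and the log2 fold change of IGFBP2 was -1.36 (SE 0.226, 95% interval -1.85 to -0.87, adjusted p = 0.00089). MC-F7 replicate 3 also had the highest mitochondrial share of its group, 28.3%, and the lowest POU5F1, 825 CPM against 1456 and 1305 CPM. MT-F7 replicate 3 likewise had the highest mitochondrial share of its group, 27.9%, and the lowest POU5F1, 486 CPM against 557 and 524 CPM. Its IGFBP2, however, was the highest of its group, at 1376 CPM. The part of these in the IGFBP2 result was not tested. Without MC-F7 replicate 3, IGFBP2 had a log2 fold change of -1.58 (edgeR, adjusted p = 4.2e-05).

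IGFBP3 (282261), the main IGF carrier of blood serum, was at 1635, 1663 and 1459 CPM in MC-F7, against 782, 662 and 782 CPM in MT-F7. The groups were far apart relative to their spread. The means were 1586 ± 111 and 742 ± 69.3 CPM (SD, n = 3), a log2 fold change of -1.10 (SE 0.163, 95% interval -1.45 to -0.74, adjusted p = 4e-04).

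IGFBP5 (404185), a binding protein that also attaches to extracellular matrix, was at 45.2, 39.6 and 37 CPM in MC-F7, against 16.7, 15.8 and 17.5 CPM in MT-F7. All MT-F7 values lay below all MC-F7 values, with little spread. The means were 40.6 ± 4.2 and 16.7 ± 0.85 CPM (SD, n = 3), and the log2 fold change of IGFBP5 was -1.28 (SE 0.156, 95% interval -1.62 to -0.95, adjusted p = 9e-05). On log2(deposited TPM + 1) it was -0.72 (limma, adjusted p = 0.007), and with TPM first rescaled to 1000000 per library -1.09 (limma, adjusted p = 0.0034).

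IGFBP4 (282262) went the other way. This binding protein, mostly an inhibitor of IGF action until the protease PAPPA cuts it, was at 69.8, 58.1 and 53 CPM in MC-F7, against 163, 178 and 191 CPM in MT-F7. The lowest MT-F7 library was above the highest MC-F7 library by a wide margin. The means were 60.3 ± 8.62 and 177 ± 14.1 CPM (SD, n = 3), and the log2 fold change of IGFBP4 was 1.55 (SE 0.158, 95% interval 1.21 to 1.90, adjusted p = 2.1e-05). Without MC-F7 replicate 3 it was 1.47 and without MT-F7 replicate 3 it was 1.49, both under the study's limit of 1.5. IGFBP2 passed that limit in each of these settings, at -1.58 and -1.51.

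IGFBP6 (404186), which prefers IGF2 over IGF1, was at 14.9, 14.8 and 7.95 CPM in MC-F7, against 18.2, 13.7 and 19.3 CPM in MT-F7. The groups overlapped, and MC-F7 replicate 3 was again the lowest. The log2 fold change of IGFBP6 was 0.44 (SE 0.239, 95% interval -0.08 to 0.96, adjusted p = 0.21).

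Levels of different genes were compared per length, on the deposited TPM values after each library had been rescaled to a sum of 1000000 over 21357 genes. The median gene was at 1.37 on this scale in MC-F7 and 1.43 in MT-F7. In MC-F7 the order was IGFBP2 (2693 ± 785), IGFBP3 (839 ± 87.3), IGFBP4 (34.1 ± 5.12), IGFBP5 (15.9 ± 1.8), IGFBP6 (9.48 ± 3.23), IGF2R (9.3 ± 0.598), IGF1R (3.5 ± 0.483), IGF2 (1.91 ± 0.428), INSR (0.849 ± 0.0544) and IGF1, which was above 0 in 1 library only (SD, n = 3). Of these neighbours IGFBP6 and IGF2R overlapped, and the others did not. In MT-F7 the order was IGFBP2 (1096 ± 135), IGFBP3 (414 ± 28.4), IGFBP4 (106 ± 6.64), IGFBP6 (13.5 ± 1.9), IGF2R (11.8 ± 1.83), IGF2 (10.1 ± 1.84), IGFBP5 (6.9 ± 0.0795), IGF1R (4.49 ± 0.706), INSR (0.724 ± 0.105) and IGF1 at 0. There IGFBP6 overlapped IGF2R, and IGF2R overlapped IGF2.

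IGF2 thus stood below IGF1R and IGFBP5 in the order of MC-F7 levels and above both in that of MT-F7. Among the 21357 genes, the mean level of IGF2 ranked 9990 in MC-F7 and 6097 in MT-F7. IGFBP2 ranked 52 and 101, and IGFBP3 ranked 124 and 223, so both remained among the most abundant transcripts of the cells on either feeder. IGFBP4 ranked 2626 in MC-F7 and 902 in MT-F7, and IGFBP5 ranked 4578 and 7152.

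**Figure D2:**
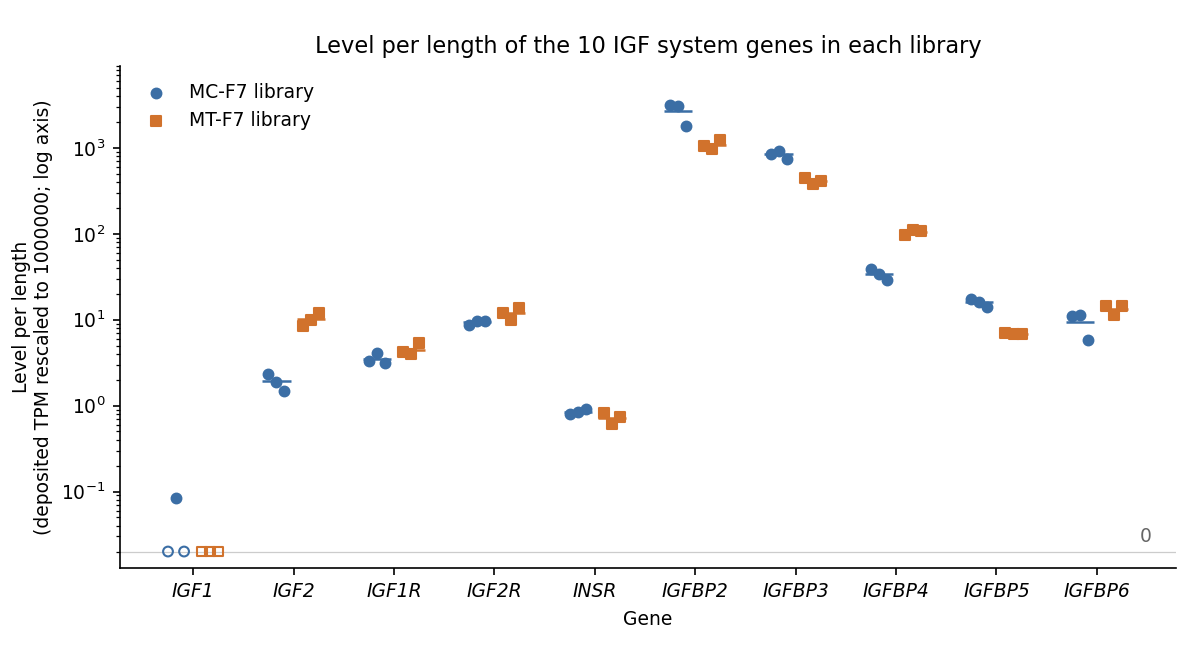
Level per length of the 10 IGF genes in each library (deposited TPM rescaled to 1000000 per library, log axis); circles are MC-F7, squares MT-F7, short lines the group means, and open symbols on the line marked 0 are libraries with no counts. IGFBP2 and IGFBP3 are the top genes in all 6 libraries, and IGF2 and IGFBP4 are the genes whose MT-F7 squares lie clearly above the circles.

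The make-up of the binding protein transcripts is given as a description, with no test. The summed level per length of IGFBP2 to IGFBP6 was 4109, 4086 and 2581 in MC-F7, against 1628, 1492 and 1788 in MT-F7, so every MT-F7 library was lower. IGFBP2 made up 77.5%, 76.1% and 69.3% of this sum in MC-F7, against 65.5%, 65.6% and 69.5% in MT-F7, with MT-F7 replicate 3 just above MC-F7 replicate 3. The share of IGFBP3 overlapped between the groups, at 24% ± 4.23 and 25.4% ± 1.99 (SD, n = 3). IGFBP4 took 0.953%, 0.837% and 1.12% in MC-F7, against 6.03%, 7.41% and 6.06% in MT-F7. IGFBP6 took 0.259% ± 0.0315 and 0.823% ± 0.0714, also without overlap, although its own level did overlap. The share of IGFBP5 was 0.455% ± 0.0772 and 0.424% ± 0.0359, so IGFBP5 fell about as much as the sum did.

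**Figure D3:**
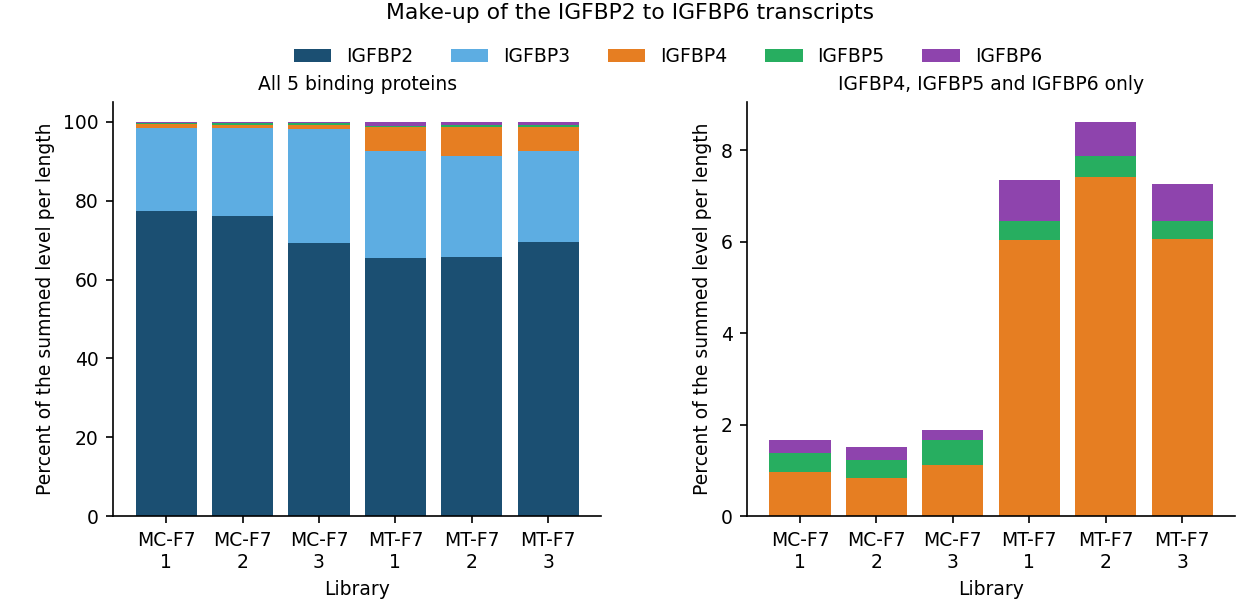
Share of each of IGFBP2 to IGFBP6 in their summed level per length, in percent, 1 bar a library; the left panel stacks all 5 genes and the right panel shows IGFBP4, IGFBP5 and IGFBP6 on a wider scale. IGFBP2 and IGFBP3 fill most of every bar, and IGFBP4 takes 0.837% to 1.12% of the MC-F7 bars and 6.03% to 7.41% of the MT-F7 bars.

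Ratios between transcripts, each formed within a library on the per-length levels, are given as descriptions without a test. The summed binding protein level was 1749, 2158 and 1728 times that of IGF2 in MC-F7, and 193, 151 and 148 times in MT-F7. The ratio of IGFBP3 to IGFBP4 was 24.8 ± 2.57 in MC-F7 and 3.94 ± 0.519 in MT-F7, and that of IGFBP2 to IGFBP4 was 78 ± 14.8 and 10.4 ± 1.38 (SD, n = 3). None of these ratios overlapped between the groups. IGF1R was 4.14 ± 0.66 times the level of INSR in MC-F7 and 6.26 ± 1.02 times in MT-F7. IGF2R was 2.68 ± 0.328 times the level of IGF1R in MC-F7 and 2.63 ± 0.159 times in MT-F7, where the groups overlapped. These are ratios of transcripts, and protein was not measured in these files.

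Around these 10 genes, 4 further lists hold 56 genes of the IGF system and its signalling path, 53 of them in the count table and 46 tested. Of the 46, 8 were higher and 6 were lower in MT-F7, against 11.9% and 11.3% of all tested genes. Without MC-F7 replicate 2, 9 were called in place of 14. Their median log2 fold change was 0.15. The groups did not overlap for 20 of the 46, against 40% of all tested genes. IRS1 and IRS2, adaptors of IGF1R and INSR, were not analysed here.

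The list of relatives and partners of the IGF genes gave 2 higher and 1 lower gene of 7 tested, against 11.9% and 11.3% of all tested genes. IGFBPL1, which resembles the binding proteins in sequence, had 292, 293 and 257 counts in MC-F7, against 939, 855 and 708 in MT-F7. It was 2.71-fold higher in MT-F7, at 12.4 ± 0.486 and 33.5 ± 3.7 CPM (SD, n = 3; log2 fold change 1.44, SE 0.16, adjusted p = 4.4e-05). IGFBP7, a relative with weak IGF binding, was low, at 17, 41 and 23 counts in MC-F7, against 119, 161 and 65 in MT-F7. Its log2 fold change was 1.95 (SE 0.38, adjusted p = 0.0027), and on log2(deposited TPM + 1) it was 0.51 (limma, adjusted p = 0.041). With TPM first rescaled to 1000000 per library, it was 1.30 (limma, adjusted p = 0.028). IGF2BP1, an RNA-binding protein named for binding IGF2 mRNA, was lower in MT-F7, at 65.3 ± 9.26 and 46.6 ± 4.47 CPM (SD, n = 3; log2 fold change -0.49, SE 0.159, adjusted p = 0.042). This call was lost in 9 of 17 alternatives and in 5 of the 6 fits with 1 library left out, where its adjusted p reached 0.14 without MC-F7 replicate 1. Its relatives IGF2BP2 and IGF2BP3 had log2 fold changes of -0.19 (adjusted p = 0.44) and -0.05 (adjusted p = 0.85). INSRR, an orphan receptor of the insulin receptor family, had a log2 fold change of 0.24 (adjusted p = 0.68), and IGFALS, which joins IGFBP3 and IGF in serum, had 0.15 (adjusted p = 0.73). IGFBP1 was not tested, with 3, 6 and 1 counts in MC-F7, against 7, 10 and 4 in MT-F7.

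Of the genes that govern release of IGFs from the binding proteins, STC2 showed the widest difference. STC2 encodes stanniocalcin 2, a secreted inhibitor of the protease PAPPA. It had 1900, 2320 and 1369 counts in MC-F7, against 124, 105 and 177 counts in MT-F7. The groups were separated by a wide gap. At 81.4 ± 16.2 and 5.5 ± 1.8 CPM (SD, n = 3) STC2 was 14.8-fold lower in MT-F7 (log2 fold change -3.89, SE 0.247, 95% interval -4.42 to -3.35, adjusted p = 7.7e-07). The target of that inhibitor, PAPPA, had 2, 6 and 0 counts in MC-F7 and the same 3 values in MT-F7. PAPPA2, a related protease, had 0 counts in every library, and ADAM12, which also cuts binding proteins, had 2 counts in MT-F7 replicate 2 and 0 elsewhere. These proteases were thus at or near the limit of detection. The other 3 tested genes of the list were STC1, a relative of STC2 (log2 fold change -0.08, adjusted p = 0.88), and the proteases HTRA1 (0.06, adjusted p = 0.88) and CTSD (0.18, adjusted p = 0.49). So the list had 1 lower and no higher gene of 4 tested, against 11.3% lower and 11.9% higher over all tested genes.

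Among the receptor adaptors and regulators, 3 of 11 tested genes were higher in MT-F7 and none was lower, against 11.9% and 11.3% of all tested genes. IRS4, a docking protein of the insulin receptor substrate family, was at 37, 37.6 and 35.8 CPM in MC-F7, against 104, 97 and 93.5 CPM in MT-F7. Replicates were close to each other in both groups. The log2 fold change of IRS4 was 1.41 (SE 0.141, adjusted p = 1.7e-05). SOCS2, a feedback inhibitor of growth hormone and IGF signalling, was at 2.17 ± 0.667 and 7.43 ± 1.79 CPM (log2 fold change 1.77, SE 0.288, adjusted p = 0.00077). SHC1, an adaptor that links receptors to RAS, was at 193 ± 10.2 and 293 ± 8.4 CPM (SD, n = 3; log2 fold change 0.60, SE 0.141, adjusted p = 0.0082), and its adjusted p was 0.054 without MC-F7 replicate 2. The study had picked SOCS2 and GAB2 of this list, and PIK3R1, PIK3R3 and PIK3CD of the next, from these libraries, so they are no independent evidence of direction.

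In the path from PI3K through AKT to mTOR, 3 of 24 tested genes were higher and 4 were lower in MT-F7, against 11.9% and 11.3% of all tested genes. Their median log2 fold change was 0.11. The PI3K subunits that passed went in both directions. The regulatory subunits PIK3R1 (log2 fold change 1.04, SE 0.192, adjusted p = 0.0019) and PIK3R3 (1.73, SE 0.492, adjusted p = 0.023) were higher. PIK3R3 was low, at 10, 6 and 9 counts in MC-F7, against 32, 19 and 40 in MT-F7. On log2(deposited TPM + 1) its difference was 0.184 (limma, adjusted p = 0.035). With TPM first rescaled to 1000000 per library, it was 0.702 (limma, adjusted p = 0.028). The catalytic subunits PIK3CD (-1.61, SE 0.295, adjusted p = 0.0018) and PIK3CB (-0.66, SE 0.195, adjusted p = 0.027) were lower. PIK3R3 held in 3 and PIK3CB in 2 of the 6 fits with 1 library left out; the adjusted p reached 0.11 for both, for PIK3R3 without MC-F7 replicate 2 and for PIK3CB without MT-F7 replicate 1. PIK3CB was also not called by limma on log2(TPM + 1), log2(TPM + 0.1) or rescaled TPM, with adjusted p of 0.20, 0.18 and 0.16.

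FOXO1, a transcription factor that AKT keeps out of the nucleus, had 78, 134 and 64 counts in MC-F7, against 15, 21 and 33 counts in MT-F7. The groups did not overlap. Its log2 fold change was -2.10 (SE 0.38, 95% interval -2.92 to -1.27, adjusted p = 0.0017). Its relative FOXO4 was higher (log2 fold change 0.83, SE 0.211, adjusted p = 0.012), but without MC-F7 replicate 2 the adjusted p of FOXO4 was 0.062. EIF4EBP1, a repressor of translation that mTOR inactivates, was at 99.9 ± 8.69 CPM in MC-F7 and 58.2 ± 5.34 CPM in MT-F7 (SD, n = 3; log2 fold change -0.78, SE 0.148, adjusted p = 0.0024). On log2(deposited TPM + 1) the differences of the low genes were smaller, at -0.23 for FOXO1, -0.13 for PIK3CD, 0.30 for PIK3R1 and 0.41 for SOCS2, and limma still called these 4 genes. With TPM first rescaled to 1000000 per library, they were -0.883, -0.555, 0.755 and 1.143 in the same order. The lipid phosphatase INPPL1 (0.23, adjusted p = 0.40) and the kinase GSK3A (-0.25, adjusted p = 0.26), which together with SHC1 had the highest mean CPM of these last lists over the 6 libraries (a scale not divided by length), did not pass.

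**Figure D4:**
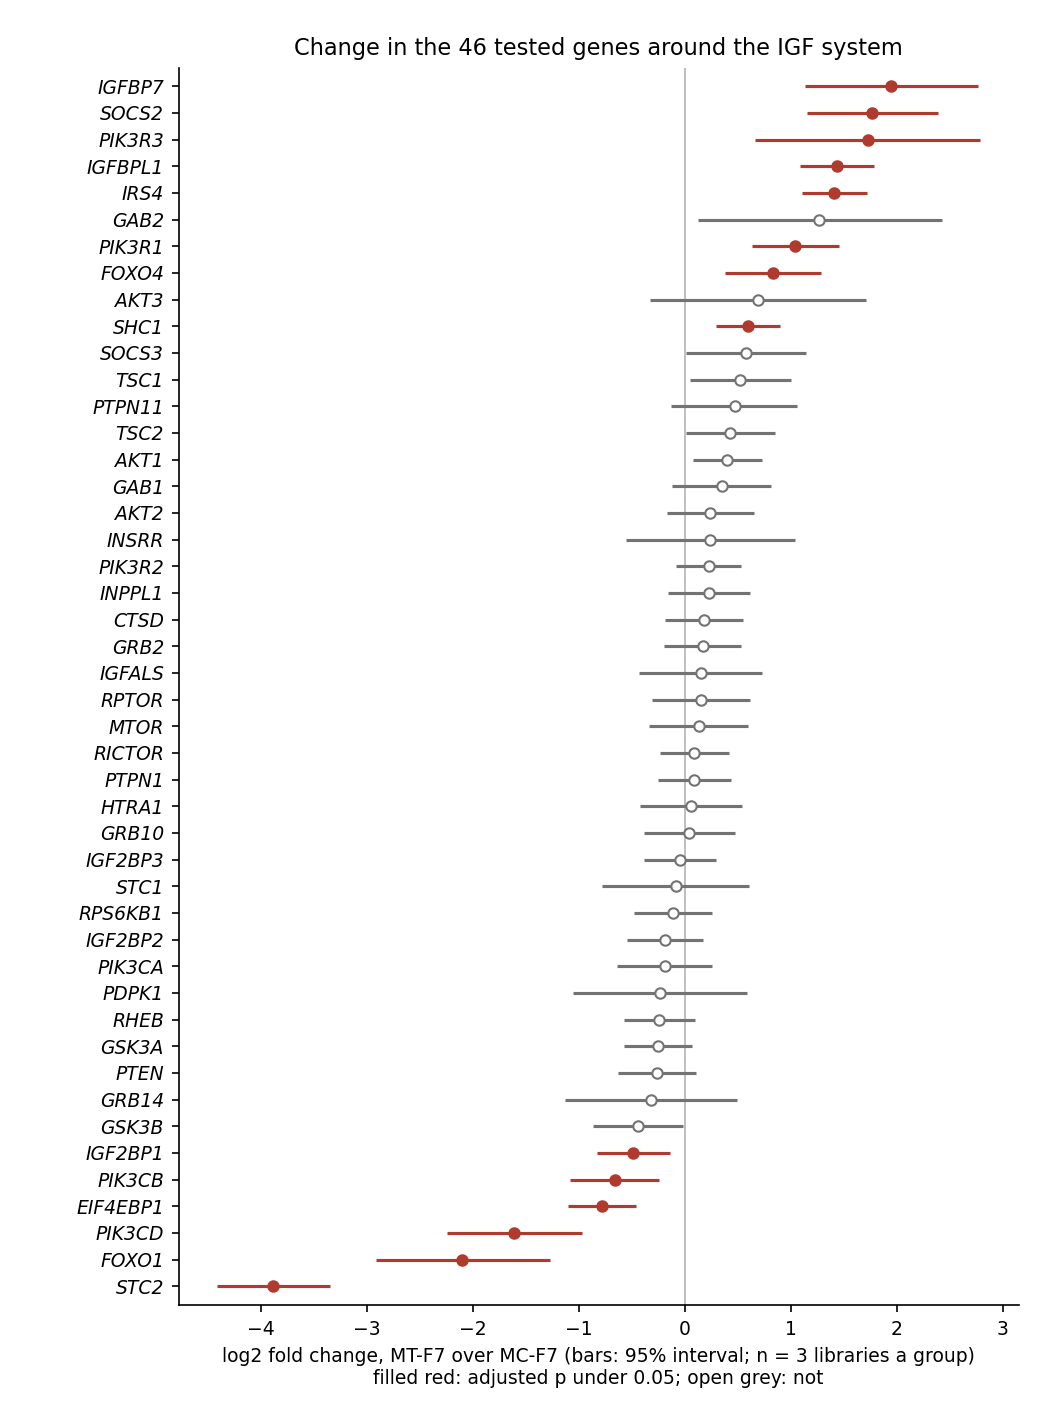
Log2 fold change of MT-F7 over MC-F7 with 95% intervals (edgeR quasi-likelihood fit, n = 3 libraries a group) for the 46 tested genes around the IGF system, ordered by value; filled red points have an adjusted p under 0.05. STC2 (-3.89) stands apart at the lower end, IGFBP7 (1.95) is at the upper end, and most of the genes are open points near 0.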

How the data were processed

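The authors aligned filtered reads to the Bos taurus genome, counted them on genes and deposited raw counts per Entrez gene. The submitters' processing notes name HISAT2 2.0.5, featureCounts 1.5.0-p3 and edgeR. The genome build and the strand setting are not given in the sources used here. The authors also deposited a table in a unit they call TPM. Its columns, after repeated lines were dropped (21653 lines, 21357 genes), added up to 154763 to 164394, so each library was rescaled to 1000000 to compare levels per length.

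From the counts, genes were kept with filterByExpr (minimum count 10, minimum total 15), scaled by TMM and compared with edgeR 4.0.16 (quasi-likelihood test, two-sided, no block) in R 4.3.3. P-values were adjusted by Benjamini-Hochberg over all 13001 genes kept, and an adjusted p under 0.05 was called. The standard error is the absolute log2 fold change divided by the square root of F. DESeq2 1.42.0 and limma 3.58.1 served as alternatives, with other scalings, filters, a replicate block and each library left out. In data simulated after MT-F7 against MC-F7 (13013 genes), edgeR recovered 74% of 100 genes changed by 1 on the log2 scale and 100% of 100 changed by 2, and 3.87% of its calls were false. The simulation gave every gene the same dispersion (0.0342), with changes balanced up and down and limited to better counted genes. It changed far fewer genes than the 3016 called in the data, so these rates need not hold there.

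The IGF genes and all lists were chosen with earlier results of these data known. Named were all IGF genes, all listed relatives and partners, and all release genes. Also named were up to 12 called genes of the other lists and the 3 of their genes with the highest mean CPM. Of the markers, POU5F1, SOX2, NANOG, COL1A1, COL1A2 and DCN were named. Marker genes named beyond these were chosen after their values were seen. No 2 libraries of a group agreed within sampling noise (chi-square per degree of freedom 25.4 or more). These values ran from 25.4 to 126 within groups and from 91.4 to 221 between groups, so the 2 ranges overlapped. MC-F7 replicate 3 against MT-F7 replicate 3, at 91.8, was closer than MC-F7 replicate 1 against MC-F7 replicate 3, at 126.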

Additional observations from a re-analysis of the deposited data

How the results depend on the processing

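The 5 called IGF genes were called in the same direction under all 17 alternatives, and the 4 other tested IGF genes kept their direction and were called under none of them. The highest adjusted p of the called genes was 0.036, for IGFBP2 with limma on log2(TPM + 1). By the limit of 1.5, limma on log2(TPM + 1) called 1 IGF gene in place of 2. Without MC-F7 replicate 3, without MT-F7 replicate 3, or without replicate 3 of both groups (chosen after seeing the data, as were the removal of mitochondrial genes and the rescaled TPM) the number was 2, but these were IGF2 and IGFBP2. Whether the replicate numbers pair the libraries was not settled. Deviations from the group means correlated at 0.188, 0.0893 and 0.544 for libraries of the same number, the last being replicate 3. MC-F7 replicate 1 correlated best with MT-F7 replicate 2 (0.412). Deviations within groups of 3 are not independent, and a batch shared by the replicate 3 libraries was not tested. With the replicate block, 4674 genes were called (2373 higher, 2301 lower) in place of 3016 (1553 higher, 1463 lower), and 18 genes around the IGF system in place of 14, while the same number of IGF genes, 5, was called. With 1 library left out, these counts ranged from 1914 to 3093 over all genes and from 9 to 16 around the IGF system, both lowest without MC-F7 replicate 2. The split into higher and lower calls moved to 1547 and 820 with limma on log2(TPM + 1), to 1581 and 845 with log2(TPM + 0.1), and to 1421 and 960 with rescaled TPM. Without rescaling, the deposited TPM followed raw counts for the IGF genes, with no scaling for library size. Every MT-F7 library had more counts (24271208 or more) than every MC-F7 library (23414319 or fewer). The part of this in the split was not tested. With CPM in place of levels per length, the shares in MC-F7 and MT-F7 became 63% and 54.7% for IGFBP2, 34.6% and 35.3% for IGFBP3, 1.3% and 8.44% for IGFBP4, and 0.883% and 0.795% for IGFBP5, because CPM is not divided by gene length.

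Some log2 fold changes that were not called changed sign, and the cause was not tested. With 1 library left out, IGFALS ranged from -0.023 (without MT-F7 replicate 2) to 0.423, IGF2BP3 from -0.171 to 0.045 (without MC-F7 replicate 3), STC1 from -0.326 to 0.074 (above 0 without MC-F7 replicate 1, MC-F7 replicate 2 or MT-F7 replicate 3), HTRA1 from -0.066 to 0.238 (below 0 without MC-F7 replicate 3, MT-F7 replicate 1 or MT-F7 replicate 2) and COL1A2 from -0.105 to 0.278 (below 0 without MC-F7 replicate 1, MC-F7 replicate 3 or MT-F7 replicate 1). On log2(TPM + 1), log2(TPM + 0.1) and rescaled TPM, IGF2BP3 was 0.072, 0.088 and 0.038 and STC1 was 0.009, 0.05 and 0.012. Without replicate 3 of both groups, IGF2BP3 was 0.102 and CTSD was -0.053. PIK3R3 had no value where 10 counts were required in every library. Of the named markers, POU5F1 was not called by limma on log2(TPM + 1) (adjusted p = 0.053). COL1A1 was called by edgeR with the replicate block (adjusted p = 0.02). Depth limits IGF1, INS, PAPPA, PAPPA2 and ADAM12, which were at or near 3 counts.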

Other observations

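In the RefSeq annotation of the ARS-UCD2.0 assembly, used only for gene order, IGFBP2 and IGFBP5 are neighbours on chromosome 2, and both were lower in MT-F7 (log2 fold changes of -1.36 and -1.28). IGFBP3 and IGFBP1 are neighbours on chromosome 4, where IGFBP3 was lower and IGFBP1, at 1 to 10 counts a library, was not tested. INS and IGF2 are neighbours on chromosome 29, where INS had at most 2 counts in a library in which IGF2 had 1343.

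The deposited TPM of each IGF gene with counts in more than 1 library stood in a fixed ratio to its raw counts over the 6 libraries. For these genes the deposited unit was thus not scaled for library size. The divisors implied by these ratios, relative to that of IGFBP2, were 4.26 for IGF2, 6.25 for IGF2R, 3.24 for IGF1R and 3.31 for INSR, and between 1.2 and 2.3 for the other binding proteins. Whether these divisors match annotated lengths was not tested.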
